A study of Mus musculus with 24 samples.

Results

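Natural killer cells are lymphocytes that kill infected or transformed cells, and they read their targets through a balance of activating and inhibitory surface receptors. Most of the mouse receptors are lectin-like proteins encoded side by side in a single gene complex on chromosome 6. The 10 genes described here were chosen by name: Klrb1c, Klrk1, Ncr1, Klrc1, Klrd1, Klre1, Klra1, Klra7, Klrg1 and Cd244. All 10 were among the 29742 gene names on the array, and all 10 passed the filters on dim and invariant probes that left 17797 genes to test. RNA was taken from the whole blood of male C57BL/6J mice, with 1 mouse per array and 6 mice per group. The young unirradiated and young irradiated mice were 2 months old, and the old unirradiated and old irradiated mice were 21 months old. Irradiated mice received 4 Gy of x-rays, and blood was drawn 24 h later by cardiac puncture. In whole blood, fewer cells of a type and less RNA per cell cannot be told apart.

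Klrb1c encodes the NK1.1 antigen by which natural killer cells are recognised in this strain. Klrk1 (NKG2D) and Ncr1 (NKp46) are activating receptors that signal through small adaptor proteins. Klrc1 (NKG2A) pairs with Klrd1 (CD94) in an inhibitory receptor for the non-classical MHC molecule Qa-1, and Klre1 is a related lectin of the same gene complex. Klra1 and Klra7 (Ly49A and Ly49G) are inhibitory receptors for classical MHC class I. Klrg1 is an inhibitory receptor for cadherins carried by mature natural killer cells and effector T cells. Cd244 (2B4) binds Cd48 and is also found on other leukocytes.

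The 250 bases before the annotated start are shown for the 6 receptors that rose after irradiation in young mice (RefSeq, GRCm38.p6, 5′ to 3′ along the gene), because these genes moved together. Capitals mark the letters TGTGGT of a RUNX motif and AGGAAG of an Ets motif, or their reverse complements ACCACA and CTTCCT.
Klrb1c (chr6:128788642-128788891, - strand): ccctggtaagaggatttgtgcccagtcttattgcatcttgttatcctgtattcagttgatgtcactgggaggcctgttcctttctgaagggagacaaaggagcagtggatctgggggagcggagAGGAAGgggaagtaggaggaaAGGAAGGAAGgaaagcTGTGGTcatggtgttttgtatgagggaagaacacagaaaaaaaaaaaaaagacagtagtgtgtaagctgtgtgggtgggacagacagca
Klrk1 (chr6:129623865-129624114, - strand): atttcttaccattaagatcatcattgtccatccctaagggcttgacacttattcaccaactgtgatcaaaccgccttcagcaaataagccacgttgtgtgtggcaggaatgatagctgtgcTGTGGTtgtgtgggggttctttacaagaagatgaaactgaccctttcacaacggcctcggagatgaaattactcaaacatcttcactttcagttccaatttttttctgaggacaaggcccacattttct
Ncr1 (chr7:4337465-4337714, + strand): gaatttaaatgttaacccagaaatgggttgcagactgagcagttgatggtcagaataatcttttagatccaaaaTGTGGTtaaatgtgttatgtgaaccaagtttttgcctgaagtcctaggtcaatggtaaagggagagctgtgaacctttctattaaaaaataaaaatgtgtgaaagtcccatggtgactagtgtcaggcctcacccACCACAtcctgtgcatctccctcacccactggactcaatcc
Klrc1 (chr6:129678974-129679223, - strand): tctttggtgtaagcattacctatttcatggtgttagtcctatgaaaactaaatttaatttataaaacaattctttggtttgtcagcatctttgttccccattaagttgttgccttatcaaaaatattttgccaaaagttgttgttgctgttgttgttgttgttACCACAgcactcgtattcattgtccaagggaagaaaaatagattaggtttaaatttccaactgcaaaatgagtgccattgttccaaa
Klre1 (chr6:129577963-129578212, + strand): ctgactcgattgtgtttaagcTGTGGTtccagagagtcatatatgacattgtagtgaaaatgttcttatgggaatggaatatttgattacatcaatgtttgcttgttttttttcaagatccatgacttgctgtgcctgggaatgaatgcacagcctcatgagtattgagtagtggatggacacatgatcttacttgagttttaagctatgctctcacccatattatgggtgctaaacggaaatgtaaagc
Klra7 (chr6:130231688-130231937, - strand): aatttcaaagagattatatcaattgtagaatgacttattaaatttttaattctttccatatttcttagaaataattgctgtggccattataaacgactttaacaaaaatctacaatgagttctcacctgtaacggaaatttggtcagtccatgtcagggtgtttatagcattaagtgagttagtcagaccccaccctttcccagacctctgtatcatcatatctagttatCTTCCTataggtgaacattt
The RUNX letters were found in 5 of these 6 windows, all but Klra7, and in 6 of the 8 receptors that had a promoter in the table. The same letters were found in 14.2% of 27025 mouse promoters of that length. The Ets letters were found in 3 of the 8 windows against 29.2% of all promoters, and the T-box letters CACACC or GGTGTG in 0 of 8 against 16.2%. A match of letters is a description of the window and not a bound site.

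Probes for related Ly49 receptors overlap in sequence. The Klra7 probe (mm9, chr6:130168899-130168958) shared a run of 37 bases with a probe named for Klra23, and the Klra1 probe (mm9, chr6:130314070-130314129) shared 33 bases with a probe named for Klra16. The first 20 bases of each shared run are in capitals, shown because the signal of either probe may include RNA of the relative.
Klra7 probe: tgtatttgtgGTAAGAGACTGGATAAATTT
Klra23 probe: tgtatttgtaGTAAGAGACTGGATAAATTT
Klra1 probe: gtgcaaagagAGAGAGAGAAAATCTGGAAG
Klra16 probe: tgcagtgcaaAGAGAGAGAAAATCTGGAAG
A probe named for Klra23 also listed a Klra7 transcript, and a probe named for Klrc3 listed a Klrc1 transcript. The probes used for Klrd1, Klrk1, Klrc1, Klrg1, Ncr1 and Klre1 had no run of 16 bases in common with a probe of another gene.

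All levels below are log2 signals after the median of each array was subtracted. Between 43.9% and 64.4% of the spots of an array were well above background. Old unirradiated mice 1 and 6 gave nearly the same array, with a root mean square difference of 0.16 (log2, 13701 probes) against a median of 0.494 over the pairs of that group. Old irradiated mice 4 and 6 differed by 0.304 from each other and by 1.49 to 1.67 from the other 4 mice of their group. Over repeat spots these pairs differed by 1.44 and 1.17 times the noise between spots of 1 array. Ratios this near to the noise cannot show whether each pair came from 2 different mice. The mice were kept as separate samples, as labelled, and results that rest on them are also given without them. Young irradiated mice 2 and 5 differed by 0.28 and mice 1 and 6 by 0.345, against a median of 0.725 in that group. Over repeat spots these were 1.52 and 1.3 times the noise within 1 array. The settings that merge similar arrays cover only the old pairs. Transcripts of hepatocytes, which are not blood cells, varied widely. Their mean log2 level over 12 markers was 8.98 to 10.09 in young irradiated mice 2, 4 and 5 and 8.41 to 9.23 in old irradiated mice 2, 3 and 5, but -1.46 to -0.855 in the old unirradiated mice, where 9 of the 12 markers were not well above background in any mouse. All 12 other natural killer cell markers were well above background in at least 1 mouse of every group. Young and old mice were scanned on different days, so scan day and age cannot be told apart.

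In young mice, irradiation was followed by higher signals of natural killer cell receptors. Of the 10 genes, 6 rose and 0 fell: Klre1, Ncr1, Klrb1c, Klrc1, Klrk1 and Klra7, by 1.30 to 1.76 on the log2 scale, or 2.46-fold to 3.39-fold. The call required a p below 0.005 and an adjusted p below 0.05 from limma's moderated test over all genes, which called 14.3% of genes higher and 21.1% lower. The median difference was 1.38 over the 10 receptors and -0.20 over all genes, and all 10 receptors lay above the median gene.

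Klrb1c lay between 2.21 and 4.23 in young unirradiated mice, with a median of 3.10. In young irradiated mice it lay between 3.64 and 5.63, with a median of 4.84. Only irradiated mouse 4, the lowest of its group, fell within the unirradiated range. The rise was 1.61 ± 0.39 (SE, n = 6 per group), or 3.05-fold with a 95% interval of 1.71 to 5.45 (limma adjusted p = 0.00436). A second Klrb1c probe rose by 1.63.

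Ncr1 lay between 0.51 and 2.45 in young unirradiated mice, with a median of 1.42, and between 2.11 and 4.06 in young irradiated mice, with a median of 3.30. Again irradiated mouse 4 was alone within the range of the unirradiated mice. Ncr1 rose by 1.75 ± 0.39 (SE, n = 6 per group), or 3.37-fold, and had the lowest limma adjusted p of the 10 receptors, 0.00254.

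Klrk1, like Ncr1 an activating receptor, was dim. It was well above background in 3 of 6 young unirradiated mice and in all 6 mice of each other group. Its levels were -0.98 to 1.15 in unirradiated young mice, with a median of -0.099, and 0.083 to 2.27 in irradiated young mice, with a median of 1.57. The difference was 1.45 ± 0.42 (SE, n = 6 per group, limma adjusted p = 0.0123). Its unadjusted p lay near the threshold, and the call ended in 9 of 12 cases when 1 mouse was left out (young unirradiated mouse 1, 4, 5 or 6, or young irradiated mouse 1, 2, 3, 5 or 6), with differences of 1.25 to 1.54.

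The paired lectins Klrc1 and Klrd1 differed in their calls, although the difference between them was not tested. Klrc1 had levels of 2.47 to 4.05 in unirradiated young mice, with a median of 3.02, and 3.36 to 5.59 in irradiated young mice, with a median of 4.91. It rose by 1.60 ± 0.38 (SE, n = 6 per group, limma adjusted p = 0.00429). A second Klrc1 probe, well above background in 2 of 6 young unirradiated mice, gave 1.42 and was not called. Klrd1 had levels of 4.08 to 5.13 and 3.71 to 5.79, with medians of 4.52 and 5.16, so that the irradiated range enclosed the unirradiated one. Its difference was 0.46 with a 95% interval of -0.25 to 1.18 (limma adjusted p = 0.272).

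Klre1 lay between 0.84 and 2.66 in unirradiated young mice, with a median of 1.91, and between 2.21 and 4.59 in irradiated young mice, with a median of 3.60. Irradiated mouse 4 was the only one below the highest unirradiated mouse. The rise of 1.76 ± 0.42 (SE, n = 6 per group), or 3.39-fold with a 95% interval of 1.81 to 6.34, was the largest of the 10 (limma adjusted p = 0.00404).

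Of the Ly49 receptors, Klra7 lay between 2.64 and 4.06 in unirradiated young mice, with a median of 3.24, and between 3.66 and 5.20 in irradiated young mice, with a median of 4.83. It rose by 1.30 ± 0.32 (SE, n = 6 per group, limma adjusted p = 0.00495). A second Klra7 probe rose by 1.18, while the remaining probe, well above background in 4 of 24 arrays, gave 0.062, and with the probes of a gene averaged Klra7 stood at 0.85 and was not called. Klra1 lay between 1.89 and 2.82 in unirradiated and between 2.13 and 4.24 in irradiated young mice, with medians of 2.28 and 2.90. Its highest value came from young irradiated mouse 4, in which 8 of the other 9 receptors had their lowest value of the group. The difference for Klra1 was 0.64 with a 95% interval of -0.047 to 1.32 (limma adjusted p = 0.118).

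Klrg1 had levels of 2.20 to 3.11 in unirradiated young mice, with a median of 2.41, and 1.83 to 4.21 in irradiated young mice, with a median of 3.61. The difference of 0.84 ± 0.37 (SE, n = 6 per group) did not pass (limma adjusted p = 0.0796). Cd244 was the least variable of the 10, with levels of 4.51 to 4.92 and 4.63 to 5.08 and medians of 4.77 and 5.02. It differed by 0.22 with a 95% interval of -0.056 to 0.51 (limma adjusted p = 0.176).

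**Figure D1:**
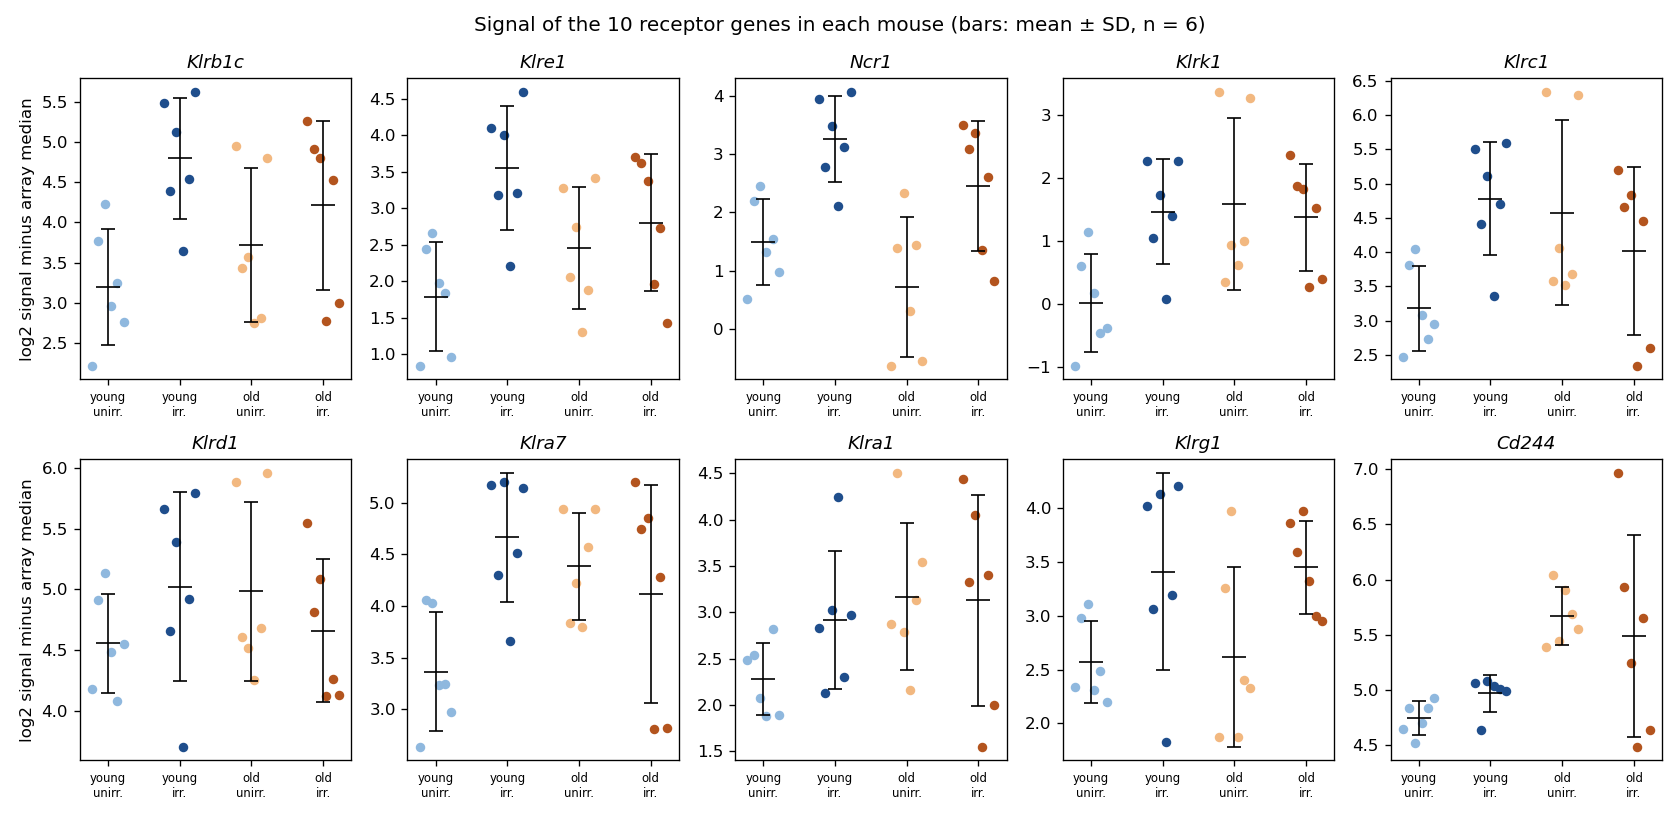
Log2 signal minus the array median (y axis, with its own scale for each gene) for the 10 receptors in the 4 groups, 1 point per mouse from left to right by mouse number, with bars for mean ± SD (n = 6). Ncr1 was 1.75 higher on average in irradiated than in unirradiated young mice, and old unirradiated mice 1 and 6 lay apart from the other 4 in Klrc1 and Klrk1.

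None of the 10 receptors had groups without overlap in young mice, whereas 24.7% of all genes did. The two-sided exact permutation test over the 924 splits of 12 mice, whose smallest possible p is 0.00216, gave p = 0.00649 for Klrb1c, Ncr1 and Klre1. The same exact test gave p = 0.00866 for Klrc1 and Klra7 and p = 0.0173 for Klrk1. Without young irradiated mice 2, 4 and 5, which held the most hepatocyte RNA, 8 receptors were called, with Klrg1 at 1.55 and Klrd1 at 1.06 added and Ncr1 at 2.33, while 14.3% of all genes were called higher and 18.7% lower. That selection was made after seeing the data. Without young irradiated mouse 4 alone, Klrg1 was called, at 1.15. On the slide that held 2 unirradiated and 2 irradiated young mice, 9 of 10 receptors were higher in the irradiated mice and 8 had no overlap, with differences of -0.033 to 2.24. Of all genes on that slide, 40% were higher, 21.2% were higher without overlap and 36.7% were lower without overlap. After normexp background correction only Klre1 was called, where 6.91% of all genes were called higher and 0.482% lower. The differences of the receptors that were no longer called were then 1.53 for Klrb1c, 1.57 for Klrc1, 1.26 for Klra7, 1.22 for Ncr1 and 0.61 for Klrk1, with limma adjusted p values of 0.051 to 0.213.

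Transcripts of other blood cells also moved in young mice. T cell markers were called lower in 9 of 11 genes, and their mean log2 level went from 5.92 to 6.28 in unirradiated mice to 3.54 to 5.33 in irradiated mice. B cell markers were lower in 8 of 8 genes, from 5.53 to 5.95 down to 2.72 to 3.69. Platelet markers were higher in 6 of 6 genes and monocyte and macrophage markers in 5 of 7, with ranges of 7.67 to 8.48 and 4.31 to 5.56 in unirradiated mice and of 8.76 to 10.59 and 5.85 to 7.05 in irradiated mice. Erythroid markers were lower in 4 of 6 genes, with a median difference of -2.14, and neutrophil markers were higher in 4 of 11, with a median of 0.97. The part of these shifts in the receptor differences was not tested.

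In old mice, 2 of the 10 receptors had an unadjusted limma p below 0.05 after irradiation, Ncr1 and Klrg1. The share of all genes below that p was not counted. Limma called 0 of the 10 receptors. It called 7.49% of all genes higher and 17.4% lower. The other scalings gave different splits, with 11.8% and 12.8% under the 75th percentile, 8.91% and 15.8% under quantile normalization, 12.8% and 11.3% under the median of bright probes, and 8.61% and 7.96% in the authors' values. The median difference was -0.11 over the receptors and -0.26 over all genes, and the latter was 0.24 under the 75th percentile. The groups of 0 receptors were without overlap, against 22.5% of all genes. Markers of other cells also moved in old mice. B cell markers were called lower in 7 of 8 genes and T cell markers in 2 of 11, with 0 higher in either. Platelet markers were higher in 6 of 6 and hepatocyte markers in 6 of 7. Of 12 natural killer cell markers other than the 10 receptors, 0 were called, with a median of 0.25. The part of these markers in the receptor differences was not tested.

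Ncr1 lay between -0.63 and 2.33 in old unirradiated mice, with a median of 0.85, and between 0.81 and 3.49 in old irradiated mice, with a median of 2.85. The lowest levels in each group came from the mice with similar arrays, 1 and 6 among the unirradiated and 4 and 6 among the irradiated. The difference of 1.74 ± 0.60 (SE, n = 6 per group) had a limma adjusted p of 0.0393 but a p of 0.0126, short of the threshold on p. It was 2.42 and called without old irradiated mice 4 and 6 (limma adjusted p = 0.00417), and 1.09 without old unirradiated mice 1 and 6 (limma adjusted p = 0.231). Ncr1 was also called under the 75th percentile, at 2.04, and under the median of bright probes, at 2.08.

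Klrg1 lay between 1.87 and 3.98 in old unirradiated mice, with a median of 2.37, and between 2.95 and 3.97 in old irradiated mice, with a median of 3.46. The unirradiated range enclosed the irradiated one. The difference was 0.83 with a 95% interval of 0.017 to 1.64 (limma adjusted p = 0.105).

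Klrc1 and Klrk1 split the old unirradiated mice. Klrc1 stood at 6.34 and 6.29 in mice 1 and 6 and between 3.52 and 4.06 in the other 4. Klrk1 stood at 3.37 and 3.28 in mice 1 and 6 and between 0.35 and 1.01 in the other 4. Klrd1, Klrb1c, Klre1 and Klra7 were also highest in these 2 mice, and Ncr1 was lowest, at -0.63 and -0.55. T cell markers split in the same way, with mean log2 levels of 6.97 and 7.12 in mice 1 and 6 and of 5.56 to 6.14 in the other 4, and their part in the receptor levels was not tested. Over the 6 old unirradiated arrays the correlation of Ncr1 with Klrk1 was -0.79 and with Klrc1 -0.77, against 0.92 to 0.99 in each other group of 6. These correlations describe arrays that share signal scale and cell makeup, and the negative ones rest on 2 nearly identical arrays.

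**Figure D2:**
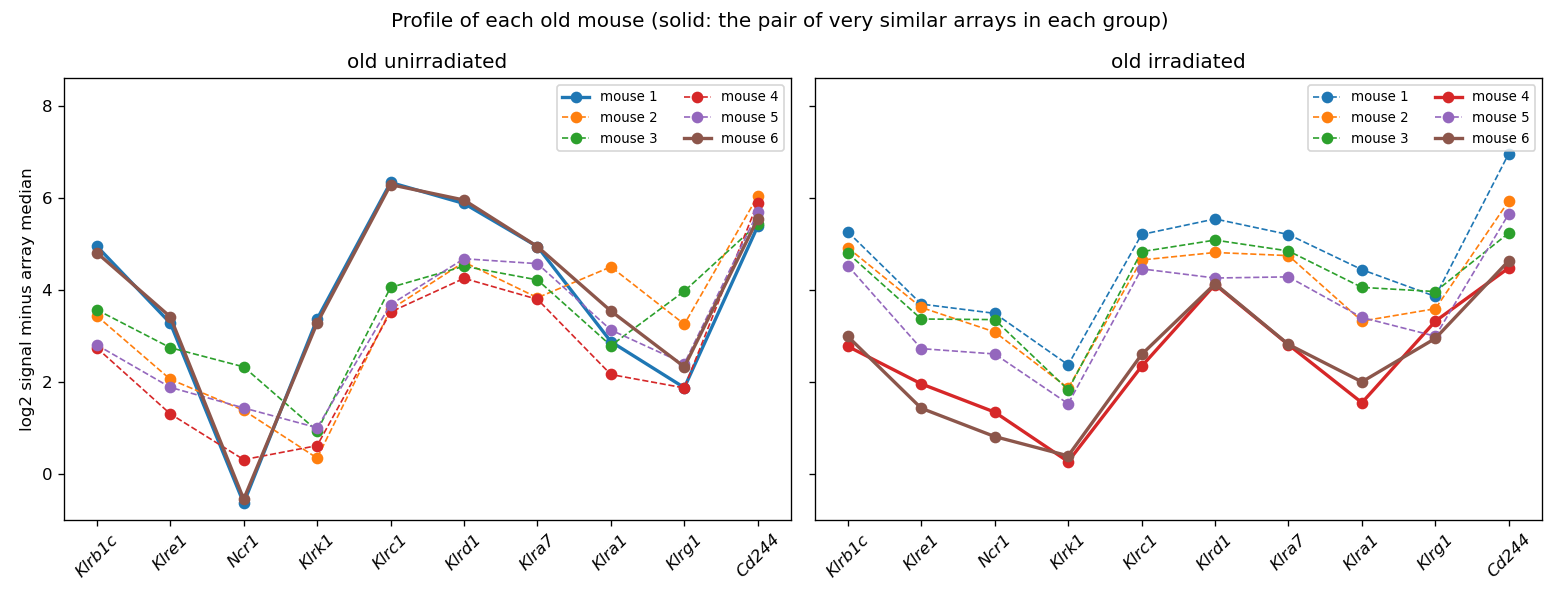
Log2 signal minus the array median (y axis) of the 10 receptors (x axis) in each old mouse, 1 line per mouse, with solid lines for the pair of very similar arrays in each group. Levels are not compared between genes, and the lines only join values of 1 mouse, such as the 6.34 of Klrc1 and the -0.63 of Ncr1 in old unirradiated mouse 1.

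In old irradiated mice, mice 4 and 6 were the lowest of the group in every receptor except Klrg1. Klrb1c stood at 2.78 and 2.99 in them and between 4.53 and 5.26 in the other 4. These mice also differed in other blood cell transcripts, with erythroid markers at 11.18 and 11.24 against 6.13 to 7.27 and monocyte and macrophage markers at 3.47 and 3.41 against 6.34 to 6.90. The arrays of mice 4 and 6 were also dimmer, with median signals of 8.66 and 8.84 against 18.34 to 33.1 in the other 4. On them 48.9% and 44.3% of spots were well above background, against 50.6% to 62.3%. The part of those transcripts and of the dimmer signal in the receptor levels was not tested. Klrb1c differed from old unirradiated mice by 0.49 with all 6 mice and by 1.16 without mice 4 and 6 (limma adjusted p = 0.0497), short of the threshold on p, and Klre1 by 0.35 and 0.90. The second Klrb1c probe went the other way with all 6 mice, at -0.17, and was not called. That probe was not well above background in old irradiated mice 4 and 6. Klrc1 gave -0.56 with all mice, 0.21 without mice 4 and 6, and 0.31 without old unirradiated mice 1 and 6. Klrk1 gave -0.22, 0.31 and 0.65 in the same order, so its direction turned.

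Klrd1, Klra7, Klra1 and Cd244 gave -0.32, -0.27, -0.038 and -0.18 in old mice, with intervals that held 0. Cd244 ran from 4.48 in mouse 4 to 6.97 in mouse 1 among the old irradiated mice, with an SD of 0.918 against 0.26 in old unirradiated mice. On the slide with 2 old mice of each treatment, 7 of 10 receptors were higher in the irradiated mice, Ncr1 by 2.84, as were 45.9% of all genes. The unirradiated mice there were mice 5 and 6, with Ncr1 at 1.44 and -0.55, and mouse 6 belongs to the similar pair.

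**Figure D3:**
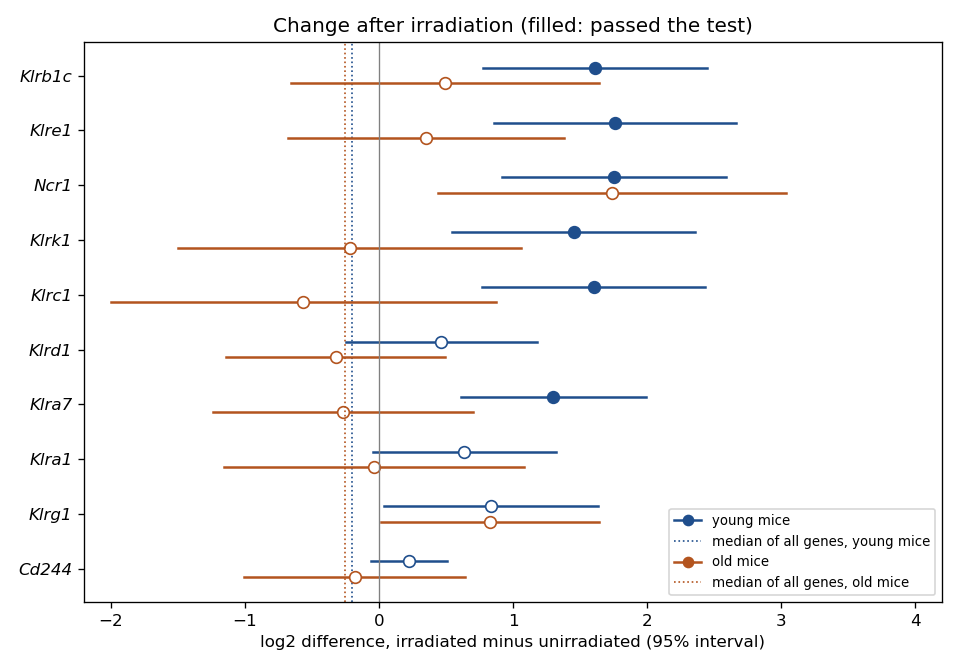
Log2 difference between irradiated and unirradiated mice (x axis) with its 95% interval for each receptor (y axis), in young and old mice, with filled points where limma's test was passed and dotted lines at the median of all genes. The 6 filled points, between 1.30 and 1.76, belong to young mice, and Ncr1 lies at 1.75 in young and 1.74 in old mice.

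The responses of young and old mice were compared by the interaction of age and radiation over all 24 arrays. The difference between the responses, old minus young, was negative for 10 of 10 receptors, with a median of -0.95 against -0.24 over all genes. Limma called 0 of them and 0% of all genes. An unadjusted limma p below 0.05 was found for 4 of them, and the share of all genes below that p was not counted. The largest was Klrc1, whose response was 1.60 in young and -0.56 in old mice, a difference of -2.16 with a 95% interval of -3.83 to -0.50 (limma adjusted p = 0.144). Klrk1 gave -1.67, Klra7 -1.57 and Klre1 -1.41, with limma adjusted p values of 0.192, 0.14 and 0.198. Klrb1c gave -1.12 with its main probe and -1.80 with its second probe. The second Klrc1 probe gave -1.65. Ncr1 and Klrg1 gave -0.016 and -0.0079, with 95% intervals of -1.56 to 1.53 and -1.12 to 1.11. Without old unirradiated mice 1 and 6 the Klrc1 difference was -1.30 and the Klrk1 difference -0.80. Without old irradiated mice 4 and 6 only 6 of the 10 receptors were negative, with Klrc1 at -1.39 and Klra7 at -0.91, and Ncr1 at 0.67, Klrg1 at 0.15, Cd244 at 0.057 and Klra1 at 0.0024 were positive. Without old irradiated mice 2, 3 and 5, which held the most hepatocyte RNA among old mice, Klra7 was called, at -2.07, but limma then called 15.3% of all genes higher and 18.7% lower, so that 1 of 10 receptors was below the share of all genes.

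Among unirradiated mice, 2 of the 10 receptors were higher in old than in young mice, Cd244 and Klra7. Limma called 48.5% of all genes higher and 15.4% lower here, and the median gene was 0.63 higher in old mice. Under the 75th percentile these were 10.8% and 26.5% with a median of -0.002, under quantile normalization 17.1% and 21.1%, under the median of bright probes 7.75% and 28.1%, and in the authors' values 4.44% and 21.5%. Of the 10 receptors, 9 were above 0 but 6 were above the median gene. Under none of those 4 settings, nor after normexp correction, was a receptor called, but Cd244 was not tested under those 4. The 1.5-fold filter left it out except in the authors' values, to which that filter was not applied here.

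Cd244 lay between 4.51 and 4.92 in young and between 5.39 and 6.04 in old unirradiated mice. It was the only 1 of the 10 whose groups did not overlap, as for 48.6% of all genes. The difference was 0.93 ± 0.14 (SE, n = 6 per group, limma adjusted p = 9.56e-05), of which 0.30 lay above the median gene. Klra7 lay between 2.64 and 4.06 in young and between 3.80 and 4.94 in old unirradiated mice, a difference of 1.02 ± 0.29 (SE, n = 6 per group, limma adjusted p = 0.00553). Without old unirradiated mice 1 and 6, Cd244 was still called, at 1.03, and Klra7 stood at 0.74 and was not. Leaving out young unirradiated mouse 1, 4, 5 or 6 or old unirradiated mouse 1, 3, 5 or 6 also ended the Klra7 call, with 0.87 to 1.05. Klrk1 and Klrc1 differed by 1.58 and 1.40 and missed the threshold on p, and without these 2 mice they stood at 0.71 and 0.53. Ncr1 was the only receptor lower in old mice, at -0.78 with a 95% interval of -1.86 to 0.30. Markers of other leukocytes differed in the same comparison. Neutrophil markers were higher in old mice in 8 of 11 genes, with a median of 1.87, basophil and mast cell markers in 4 of 5, with a median of 2.43, and platelet markers in 5 of 6, with a median of 1.10. The part of these shifts in the receptor differences was not tested.

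After irradiation, 0 of the 10 receptors had an unadjusted limma p below 0.05 between old and young mice, a share not counted over all genes. Limma called 0 of the receptors. It called 1.4% of all genes higher and 0.596% lower, and 5.05% of all genes had no overlap, against 0 of the receptors. The lowest adjusted p was 0.404, for Ncr1, at -0.80 with a 95% interval of -1.89 to 0.30. The median was -0.45 over the receptors and 0.20 over all genes. These values also rest on old irradiated mice 4 and 6. Without them Ncr1 was at -0.11, and Klrb1c at 0.074, Klrk1 at 0.43, Klrc1 at 0.0060 and Klra7 at 0.11 turned positive. Still 0 receptors were called, while 20.2% of all genes were called higher and 8.16% lower, and Cd244 came nearest, at 0.98 (limma adjusted p = 0.0214).

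Other genes of the same biology were described from lists. In young mice their counts stand beside 14.3% of all genes called higher and 21.1% lower and their medians beside -0.20, and in old mice beside 7.49%, 17.4% and -0.26. The other killer cell lectin-like receptors, 20 of 24 of which were tested, included 16 that rose and 0 that fell in young mice, with a median of 1.32. The count was 3 of 14 after normexp correction, where 6.91% of all genes were called higher and 0.482% lower. It was 5 of 21 in the authors' values, where 8.37% were called higher and 13.5% lower. Among the brightest, Klra8 rose by 1.62, Klra4 by 1.56, Klra16 by 1.20 and Klra22 by 1.19. In old mice 0 of the 20 were called, with a median of 0.51, and Klra8 gave 1.01. That count rests on old irradiated mice 4 and 6, in which the mean log2 level of the list was 1.39 and 1.38, against 2.87 to 3.86 in the other 4 mice and 1.78 to 2.38 in old unirradiated mice. Without these mice 8 of 20 rose and 0 fell, with a median of 1.18, where 11.7% of all genes were called higher and 22.7% lower. In the interaction 0 of 20 were called, with a median of -0.71, or -0.17 without mice 4 and 6, against -0.24 and -0.13 over all genes. Some probes named for Klra16, Klra22 and Klra23 share runs of bases with those of Klra1 and Klra7. Other probes stood for Klra16, Klra22 and Klra23 in the tests, and the overlap of those was not described.

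Adaptors and proximal signalling genes divided in young mice, with 4 of 18 higher, 3 lower and a median of -0.005. Fcer1g and Tyrobp, adaptors of activating receptors, rose by 1.40 and 1.05, and the phosphatase gene Ptpn11 rose by 1.69. Hcst, the adaptor of Klrk1, gave 0.21 and was not called. In old mice Fcer1g rose by 1.13 and Ptpn11 by 1.27 among 2 higher and 2 lower, with a median of -0.12, while Tyrobp gave 0.075. Myeloid cells also express Fcer1g and Tyrobp.

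Cytotoxic effector genes included 6 of 17 that rose and 1 that fell in young mice, with a median of 0.96. The granzyme gene Gzma rose by 1.78, the granule proteoglycan gene Srgn by 1.61 and Lamp1 by 1.56, whereas Ccl5 gave 0.092. Which blood cells carried these transcripts was not tested. In old mice 3 rose and 1 fell, with a median of 0.57, Srgn rose by 1.26, and Gzma gave 1.60 (limma adjusted p = 0.08). Other surface receptors of natural killer cells had 5 of 14 higher and 3 lower in young mice, with a median of 0.54 and Cd226 up by 2.14 and Itgam by 1.18, both also carried by other blood cells. In old mice 2 rose and 2 fell, with a median of 0.054, and Cd226 rose by 1.46.

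Transcription factors had 3 of 10 higher and 2 lower in young mice, with a median of 0.43. Id2 rose by 1.60, Nfil3 by 1.31 and Zeb2 by 1.17, while Ets1 had a difference of -1.95. The cell source of these transcripts was likewise not tested. In old mice 0 rose and 2 fell, with a median of -0.071 and Ets1 at -2.11. Cytokine and trafficking receptors had 2 of 15 higher and 6 lower in young and 0 higher and 4 lower in old mice, with medians of -0.63 and -0.60. The chemokine receptor Cx3cr1 gave -1.14 and -2.22, and Il2rg, the shared cytokine receptor chain, gave -0.82 and -1.55, and both passed at both ages.

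Of 12 ligand genes tested, 3 rose and 1 fell in young mice, and 2 rose and 2 fell in old mice, with medians of 0.31 and -0.013. H2-T23, which encodes Qa-1, rose by 0.54 in young mice, and Clec2d, a ligand of the Klrb1 family, rose by 0.93. Cd48, the ligand of Cd244, gave -0.46 in young mice, where it did not pass, and -1.37 in old mice, where it fell. Among unirradiated mice, 4 of the other lectin-like receptors were higher and 1 was lower in old than in young mice, with a median of 0.31 against 0.63 over all genes. In the same comparison 11 of 18 adaptors, 7 of 14 other surface receptors, 6 of 10 transcription factors, 11 of 15 cytokine and trafficking receptors, 6 of 17 cytotoxic genes and 6 of 12 ligands were called higher, with 0 to 2 lower in each list, beside 48.5% of all genes higher and 15.4% lower. These counts moved with the scale. Under the 75th percentile the counts higher were 1 adaptor, 2 surface receptors, 1 transcription factor, 3 cytokine and trafficking receptors, 2 cytotoxic genes and 4 ligands, beside 10.8% of all genes higher and 26.5% lower, and the lectin-like receptors had 1 higher and 2 lower.

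**Figure D4:**
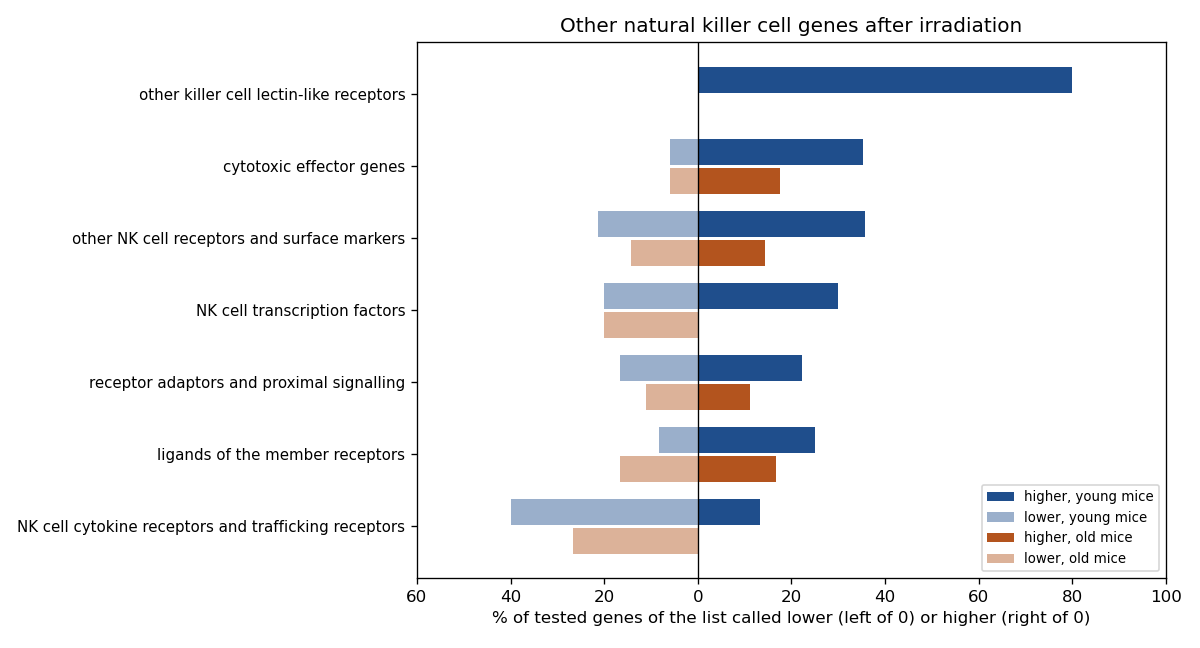
Share of the tested genes of each list (y axis) that limma called lower, to the left of 0, or higher, to the right of 0, after irradiation (x axis, %), in young and old mice. In the other killer cell lectin-like receptors 16 of 20 genes were higher in young mice and 0 of 20 were called in old mice, or 8 of 20 without old irradiated mice 4 and 6, which the plot includes.

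The receptors varied together across mice, since all 45 pairs had a positive correlation over the 24 arrays, between 0.072 and 0.964. With group means removed the range was 0.128 to 0.972, highest for Klrk1 with Klrc1. Arrays share their scale and cell makeup, so these values are descriptions. The genes most like the mean of the 10 receptors among 17758 others, by Pearson correlation over 24 arrays, were Klrb1a (0.962), Klra22 (0.957), Klra16 (0.93), Klra23 (0.922), Klrb1 (0.919), Gpc1 (0.916), Ifit2 (0.907) and Klra10 (0.905). With group means removed they were Klra22 (0.972), Klra23 (0.952), Klrb1a (0.949), Klra16 (0.949), Gpc1 (0.927), Mllt11 (0.911), Evl (0.908) and Mmgt2 (0.907).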

How the data were processed

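Blood RNA of 24 mice was hybridised to single-colour Cy3 Agilent arrays, 1 per mouse. The intensity values that the authors deposited were made with Agilent Feature Extraction 12.0.2, which subtracted local background and detrended each array without scaling between arrays. A table of log2 values that the authors deposited had been filtered and normalized before deposit and served as an alternative.

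Spots marked non-uniform were dropped, and log2 intensity minus the array median was used. Probes were left out when 25% or more of arrays had them as non-uniform or without a positive, significant signal, as were those 1.5-fold from their median in under 20% (5) of the arrays. The brightest probe stood for each gene. Members and lists were chosen with earlier results of these data known. Tests were two-sided (limma 3.58.1 in R 4.3.3, Benjamini-Hochberg over 17797 genes), fitted on the groups compared, and tested on simulated data. Named genes were the 10 members, up to 5 genes per list with the highest signal, and the 8 most correlated genes. Alternatives covered scaling, background, filters, probes, test, slide and replicates. The number of arrays, and signal over background for dim genes, limit precision. The labels call each mouse an independent experiment.

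Probe positions are mm9 as in the file headers, without a genome here to annotate exons. Motifs were searched on both strands, and 8 of 10 members matched a RefSeq promoter.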

Additional observations from a re-analysis of the deposited data

Results flagged for a closer look

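Cd244 in young irradiated mouse 2 was 4.63 (log2 minus the array median), apart from the other 5 mice of its group, which lay close together. Its gap to the nearest mouse was 0.795 of the range of the group, above Dixon's 95% critical value for 6 samples. It was the only such value in 40 groups of 6 tested, and chance gives about 1 in 20.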

How the results depend on the processing

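The 6 calls in young mice became 1 after normexp correction and 0 within the slide of 2 against 2, 4 in the authors' values (without Klrk1 and Klra7), 4 in 1 fit of all 24 arrays (without Klrk1 and Klrc1), 5 with no filter on dim probes (without Klrk1) or with probes averaged (without Klra7) and 7 with slide as a random block (Klra1 added), and the range without single mice was 5 to 7. The count of 0 in old mice became 1 (Ncr1) under the 75th percentile, the median of bright probes, 1 fit of all 24 arrays and without old irradiated mice 4 and 6, and 1 (Klrg1) within the slide, and the range without single mice was 0 to 1 (1 without old unirradiated mouse 3 or old irradiated mouse 6). Between unirradiated old and young mice, Cd244 was not tested under the 75th percentile, quantile normalization, the median of bright probes or the authors' values. The 2 calls there became 0 under those settings and under normexp. They became 1 with probes averaged, 1 fit of all 24 arrays, without old unirradiated mice 1 and 6 and with similar arrays counted as 1, and 1 to 3 without single mice. The interaction count of 0 became 1 without old irradiated mice 2, 3 and 5, and ranged from 0 to 0 without single mice, as did irradiated old against young mice. With the replicate block the count was 5 for the young response, 1 for the old response and 1 between unirradiated ages. There 13%, 6.34% and 43.5% of all genes were called higher. The samples of a block share only a number, however. Same-numbered arrays correlated between -0.286 and 0.294 in young and between -0.203 and 0.336 in old mice, and 1 and 3 of 6 correlated best with their own number. Shares of all genes called higher moved as well. In young mice the main 14.3% became 6.91% after normexp, 0.185% within the slide and 8.37% in the authors' values. It became 11.5% in 1 fit, 9.02% without the dim filter, 14.1% with probes averaged and 19.6% with slide as a block. In old mice the main 7.49% became 9.83% in 1 fit, 11.7% without old irradiated mice 4 and 6 and 5.83% within the slide. Between unirradiated ages 48.5% became 47.5% with probes averaged and 27% in 1 fit. The causes of these changes were not tested. Settings that leave out mice in pairs or threes or merge similar arrays were chosen after seeing the data, except that without old irradiated mice 2, 3 and 5. All other settings for the lists were also chosen then. Of 1600 member values, 1417 kept direction and side of the threshold, 14 passed it newly, 46 no longer passed and 123 changed sign, 0 of the latter being called either way.

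The values that changed sign were as follows. Under the 75th percentile, in irradiated minus unirradiated old mice Klrk1 at 0.085, Klra1 at 0.26 and Klra7 at 0.035, and in unirradiated old minus young mice Klrd1 at -0.092 and Klrg1 at -0.47, and in irradiated old minus young mice Klrg1 at -0.18 and Klra1 at -0.014, and in the interaction Klrg1 at 0.29 and Ncr1 at 0.28. Under quantile normalization, in irradiated minus unirradiated old mice Klra1 at 0.21 and Klra7 at 0.0019, and in unirradiated old minus young mice Klrd1 at -0.18 and Klrg1 at -0.37, and in irradiated old minus young mice Klrg1 at -0.18 and Klra1 at -0.022, and in the interaction Klrg1 at 0.19. Under the median of bright probes, in irradiated minus unirradiated old mice Klrd1 at 0.025, Klrk1 at 0.13, Klra1 at 0.31 and Klra7 at 0.081, and in unirradiated old minus young mice Klrb1c at -0.063, Klrd1 at -0.16 and Klrg1 at -0.54, and in irradiated old minus young mice Klrg1 at -0.23 and Klra1 at -0.060, and in the interaction Klrg1 at 0.31 and Ncr1 at 0.30. After normexp correction, in irradiated minus unirradiated old mice Klrd1 at 0.22, Klrk1 at 0.11, Klrc1 at 0.091, Klra1 at 0.43, Klra7 at 0.35 and Cd244 at 0.39, and in unirradiated old minus young mice Klrd1 at -0.090 and Klrg1 at -0.19, and in irradiated old minus young mice Klrg1 at -0.22. In the authors' values, in irradiated minus unirradiated old mice Klra1 at 0.22 and Klra7 at 0.0080, and in unirradiated old minus young mice Klrb1c at -0.077, Klrd1 at -0.26 and Klrg1 at -0.51, and in irradiated old minus young mice Klrg1 at -0.16 and Klra1 at -0.059, and in the interaction Klrg1 at 0.35 and Ncr1 at 0.040. Within the slide that holds both groups, in irradiated minus unirradiated young mice Cd244 at -0.033, and in irradiated minus unirradiated old mice Klra1 at 0.55, Klra7 at 0.22 and Cd244 at 0.83. Without old irradiated mice 2, 3 and 5, in irradiated minus unirradiated old mice Klrb1c at -0.043 and Klre1 at -0.089, and in irradiated old minus young mice Klrg1 at -0.030 and Klra1 at -0.25. Without old irradiated mice 4 and 6, in irradiated minus unirradiated old mice Klrk1 at 0.31, Klrc1 at 0.21, Klra1 at 0.64, Klra7 at 0.39 and Cd244 at 0.28, and in irradiated old minus young mice Klrb1c at 0.074, Klrk1 at 0.43, Klrc1 at 0.0060 and Klra7 at 0.11, and in the interaction Klrg1 at 0.15, Ncr1 at 0.67, Klra1 at 0.0024 and Cd244 at 0.057. Without young irradiated mice 2, 4 and 5, in irradiated old minus young mice Klrg1 at -0.67. Without old unirradiated mice 1 and 6, in irradiated minus unirradiated old mice Klrd1 at 0.15, Klrk1 at 0.65, Klrc1 at 0.31 and Klra7 at 0.014, and in unirradiated old minus young mice Klrb1c at -0.055 and Klrd1 at -0.041. With each pair of similar arrays counted as 1, in irradiated minus unirradiated old mice Klrk1 at 0.34, Klrc1 at 0.094, Klra1 at 0.24 and Klra7 at 0.11, and in irradiated old minus young mice Klrk1 at 0.12. In the interaction, leaving out single mice turned Klrg1 (-0.32 to 0.26) and Ncr1 (-0.28 to 0.31). In unirradiated old minus young mice, leaving out single mice turned Klrg1 (-0.22 to 0.20). In irradiated old minus young mice, leaving out single mice turned Klrk1 (-0.37 to 0.13), Klrg1 (-0.28 to 0.20) and Klra1 (-0.051 to 0.53). In irradiated minus unirradiated old mice, leaving out single mice turned Klrk1 (-0.47 to 0.14), Klra1 (-0.30 to 0.28) and Cd244 (-0.48 to 0.020).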
